A study of Mus musculus with 36 samples.

Results

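Accessible chromatin around Spi1, Spib and Spic, the 3 genes of the SPI subfamily of ETS transcription factors, was described in 8 blood-forming fractions of young and aged mice. The peaks of 36 ATAC-seq libraries were joined wherever they shared 1 bp or more, which gave 105005 regions, and a region belonged to a gene when the nearest protein-coding transcription start site (TSS) to its centre was that of the gene. Regions within 20 kb upstream of the Spi1 TSS were added whichever gene was nearest, since a known enhancer of Spi1 lies there. This gave 12 regions, of which 8 belonged to Spi1 (3 of them by the upstream rule, as the TSS of Slc39a13 was nearer), 1 to Spib and 3 to Spic.

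All cells came from bone marrow of female C57BL/6 mice, 10 weeks old (young) or 20 months old (aged), with no other treatment or allele in any group. Hematopoietic stem cells (HSCs) had 4 libraries per age. The 4 multipotent fractions (MPP1 to MPP4), the granulocyte-macrophage progenitors (GMPs), the megakaryocyte-erythrocyte progenitors (MEPs) and the common lymphoid progenitors (CLPs) had 2 libraries per age each. HSCs and MPPs were sorted as lineage-negative, Sca-1+ c-kit+ cells and told apart by CD34, CD150, CD48 and Flt3, GMPs and MEPs were c-kit+ Sca-1- cells split by Fcg receptor and CD34, and CLPs were low for Sca-1 and c-kit. As the study describes it, marrow of each age was pooled and sorted in duplicate, while the 4 HSC libraries per age are given as biological replicates, and whether HSC replicates 3 and 4 came from another pool is not given in the sources used here. Libraries of one age may therefore share animals, and p-values measure the spread between sorted samples.

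ATAC-seq inserts adapters into open chromatin with a transposase, and each library was deposited as a list of peaks with a fold enrichment, the ratio of reads at the summit to the local background. A region is called here when the library has a peak in it, and its level is the highest fold enrichment of that library in the region. Mapped reads had been subsampled to the same number in each library, and the lists hold no read counts. The weakest peaks of a library had a median fold enrichment of 3.83 to 4.34, and the lists end at a -log10 q of 3.00 to 3.02, so a region without a peak can still be open to a lesser degree. MEP lists were short, with 9581 to 11041 peaks, against 27087 to 40157 in HSCs and MPPs, 27117 to 34205 in CLPs and 52576 to 63288 in GMPs. Of the markers of the sorted fractions, regions at the starts of Mpo and Elane were called in 4 of 4 GMP libraries and in at most 1 other. The markers of HSCs did not set them apart. All 4 had a region, and 0 were called more often in HSCs than elsewhere by Fisher's exact test after adjustment. Of the 2 MEP markers with a region, 1 was called more often in MEPs. The markers of CLPs did not set them apart, as Il7r was called in 4 of 4 libraries each of MPP4, GMPs and CLPs, Rag1 in 2 of 4 CLP libraries alone and Ebf1 in 29 libraries, 8 of 8 of HSCs among them. No region lay within 1000 bp of a TSS of Gata1, Klf1 or Dntt, nor of Ms4a1 and Cd3e, markers of mature B and T cells. Of the markers of mature myeloid cells, Cd14 was called in 20 libraries, 4 of 8 HSC and 4 of 4 each of MPP3, MPP4 and GMP among them, Itgam was called in 6, and Ly6g had no region. Their part in the results was not tested.

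Spi1 encodes PU.1, a pioneer factor of myeloid and B-lymphoid development whose dose is held by an upstream regulatory element (URE) bound by RUNX1 and by PU.1 itself. PU.1 and the erythroid factor GATA-1 restrain each other, and Spi1 is silenced as cells enter the erythroid lineage. Spib encodes Spi-B, which acts in B cells and plasmacytoid dendritic cells and can share target sites with PU.1. Spic encodes Spi-C, a factor of red pulp macrophages that recycle iron from haem, and its transcription is repressed by BACH1.

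Sequence is shown for 3 of the regions on which the results turn, with the letters of any of 11 motifs in capitals and the rest in lower case, each read 5' to 3' on the strand of its gene. The motifs were AGGAAG for ETS factors, GAGGAAGT for a PU.1-like ETS site, TGTGGT for RUNX, AGATAA for GATA, TTGCNNAA for C/EBP, GAAANNGAA for IRF, GGAANNGAA for ETS with IRF, TGANTCA for AP-1, CAGCTG for an E-box, CCACACCC for KLF and TTCNNNGAA for STAT, searched on both strands. GAGGAAGT holds the ETS letters AGGAAG within it, so each of its matches is also an ETS match. Windows of 201 bases around the median summit came from the GRCm38 genome, the assembly of mm10, and the Spic sequence is the 250 bases before the RefSeq start in the promoter table of GRCm38.p6, which held 2 of the 3 genes, Spib and Spic.
Spi1 13 kb upstream (chr2:91082981-91083181, + strand, shown as the upstream element called in every fraction but MEPs): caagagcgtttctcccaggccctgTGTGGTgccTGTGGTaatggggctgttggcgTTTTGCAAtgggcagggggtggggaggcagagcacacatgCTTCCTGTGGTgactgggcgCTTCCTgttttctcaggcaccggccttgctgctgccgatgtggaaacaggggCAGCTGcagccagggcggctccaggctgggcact
Spi1 9.6 kb upstream (chr2:91086430-91086630, + strand, shown as the region called from MPP3 and MPP4 to GMPs and CLPs): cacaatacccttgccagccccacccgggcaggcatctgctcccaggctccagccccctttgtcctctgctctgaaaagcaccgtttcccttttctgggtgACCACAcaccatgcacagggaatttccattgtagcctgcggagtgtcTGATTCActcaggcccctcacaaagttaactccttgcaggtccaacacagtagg
Spic promoter (chr10:88683024-88683273, - strand, shown as the region that split the HSC replicates): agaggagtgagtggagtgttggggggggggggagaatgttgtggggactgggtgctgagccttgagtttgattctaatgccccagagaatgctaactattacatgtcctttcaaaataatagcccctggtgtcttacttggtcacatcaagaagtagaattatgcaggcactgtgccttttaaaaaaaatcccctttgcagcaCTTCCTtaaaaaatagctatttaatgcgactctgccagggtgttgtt
The window 13 kb upstream of Spi1 held 3 RUNX matches and 2 ETS matches, of which 1 pair shared a base, beside 1 C/EBP match and 1 E-box. Of 104815 windows of the same length over all regions, 25.7% held a RUNX match and 0.683% held 3 or more, while 44.8% held an ETS match and 13.6% held 2 or more. The window 9.6 kb upstream held 1 RUNX and 1 AP-1 match, the latter found in 11.4% of windows. The Spic promoter held 1 ETS match, as did 29.5% of the 32851 promoter sequences of the table. No motif of the GATA or RUNX kind was in the Spic sequence. The motifs were chosen after these sequences had been read, and a match describes letters only, with no binding measured.

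MEPs had no peak at any of the 12 regions in any of 4 libraries, where 13.3% of all regions had a peak in at least 1 MEP library, so that 0 of 12 is near the share of the catalogue. GMPs had the most at Spi1, 5 to 7 of its 8 regions per library. HSC libraries called 2 or 3 Spi1 regions, MPP1 3 to 5, MPP2 3 or 4, MPP3 2 to 4, MPP4 3 or 4 and CLP 2 or 3. Over the 105005 regions of the catalogue, a GMP library had 52576 to 63288 peaks. An HSC or MPP library had 27087 to 40157 and a CLP library 27117 to 34205. GMPs thus had both the longest lists and the most Spi1 regions, and the part of list length was not tested. The region assigned to Spib lies 2.4 kb upstream of its TSS and overlaps a coding exon of Pold1. It was called in 3 of 4 MPP3 libraries, in all MPP4, GMP and CLP libraries, and in no HSC, MPP1 or MPP2 library. Spic was called in a part of the libraries of HSCs, MPPs and CLPs and in no GMP library.

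**Figure D1:**
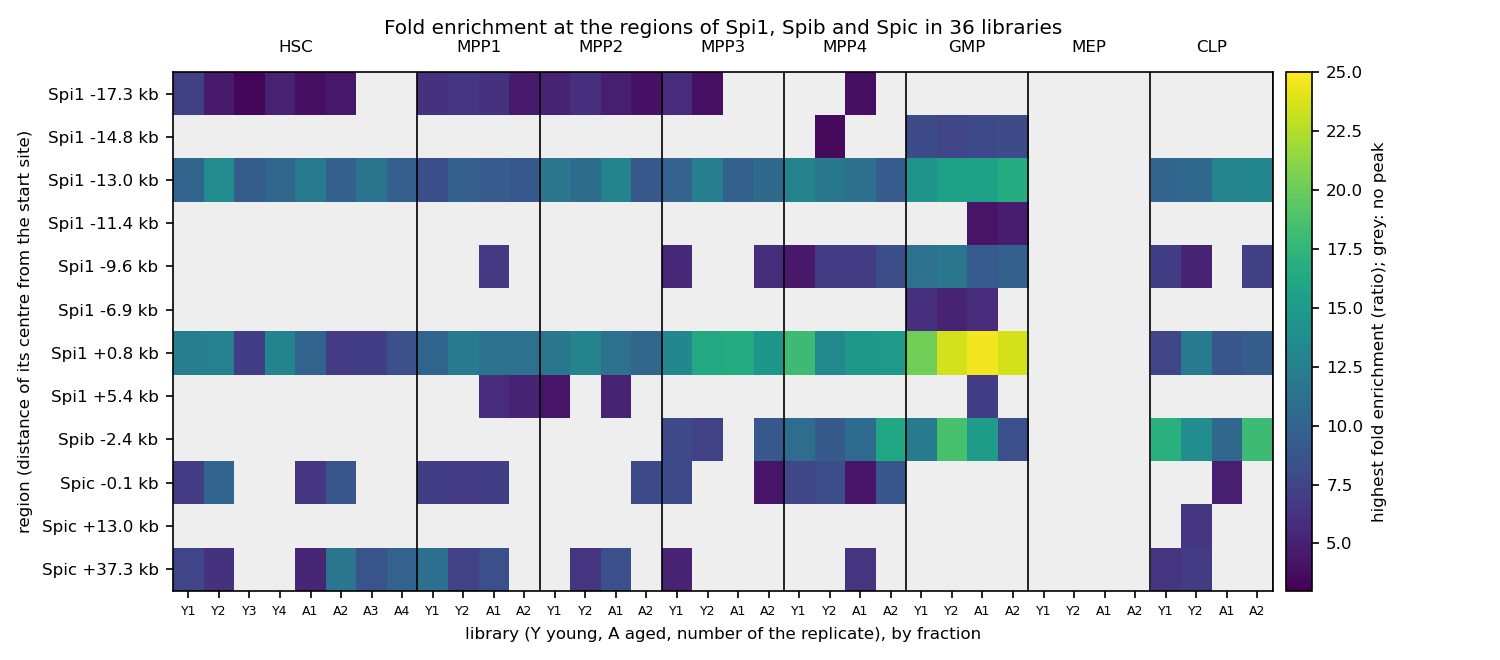
Highest fold enrichment (ratio, colour) at the 12 regions (rows, named by the distance of the centre from the TSS) in 36 libraries (columns, grouped by fraction, Y young and A aged with the replicate number), grey where a library had no peak. The MEP columns are empty, and the brightest cells are the GMP libraries at the region 0.8 kb downstream of the Spi1 TSS, at 20.2 to 24.6.

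The Spi1 region with the highest mean fold enrichment in GMPs and in each MPP was centred 0.8 kb downstream of its TSS (chr2:91096511-91097321, mm10, 811 bp) and is called the start-site region here. It begins downstream of that TSS and overlaps an exon with coding sequence and UTR of Spi1. Its median summit over 32 libraries lay 609 bp downstream of the TSS used here and 75 bp upstream of the start of another annotated transcript, one outside the basic set used here. It was called in all 32 libraries outside MEPs and in 0 of 4 MEP libraries. GMP libraries reached 20.2 and 23.5 in young and 24.6 and 23.6 in aged mice. MPP4 libraries gave 18.1 and 13.4 in young and 14.7 and 14.9 in aged mice, and MPP3 libraries 13.3 and 16.3 in young and 16.5 and 14.6 in aged mice. Every GMP library thus lay above every other library. MPP2 libraries gave 11.6 and 12.8 in young and 11.2 and 10.3 in aged mice, and MPP1 libraries 10.1 and 12.1 in young and 11.4 and 11.3 in aged mice. CLP libraries were lower still in 3 of 4 cases, at 7.57 and 12.1 in young and 8.89 and 9.51 in aged mice. HSC libraries gave 12.4, 12.7, 7.09 and 12.9 in young and 10.0, 6.88, 7.0 and 8.47 in aged mice, so the third young replicate stood among the aged values.

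By mean fold enrichment the order at the Spi1 start-site region was GMP (23.0 ± 1.90, SD, n = 4), MPP4 (15.3 ± 2.01, n = 4), MPP3 (15.2 ± 1.51, n = 4), MPP2 (11.5 ± 1.04, n = 4), MPP1 (11.2 ± 0.809, n = 4), HSC (9.68 ± 2.67, n = 8) and CLP (9.51 ± 1.89, n = 4). The ranges of neighbours in this order overlapped except between GMP and MPP4 and between MPP3 and MPP2. Over the 14 neighbouring pairs tested at 3 regions, a two-sided exact permutation test gave p = 0.0286 for each of these, the smallest that 4 against 4 allows, and 0.10 after Benjamini-Hochberg adjustment.

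**Figure D2:**
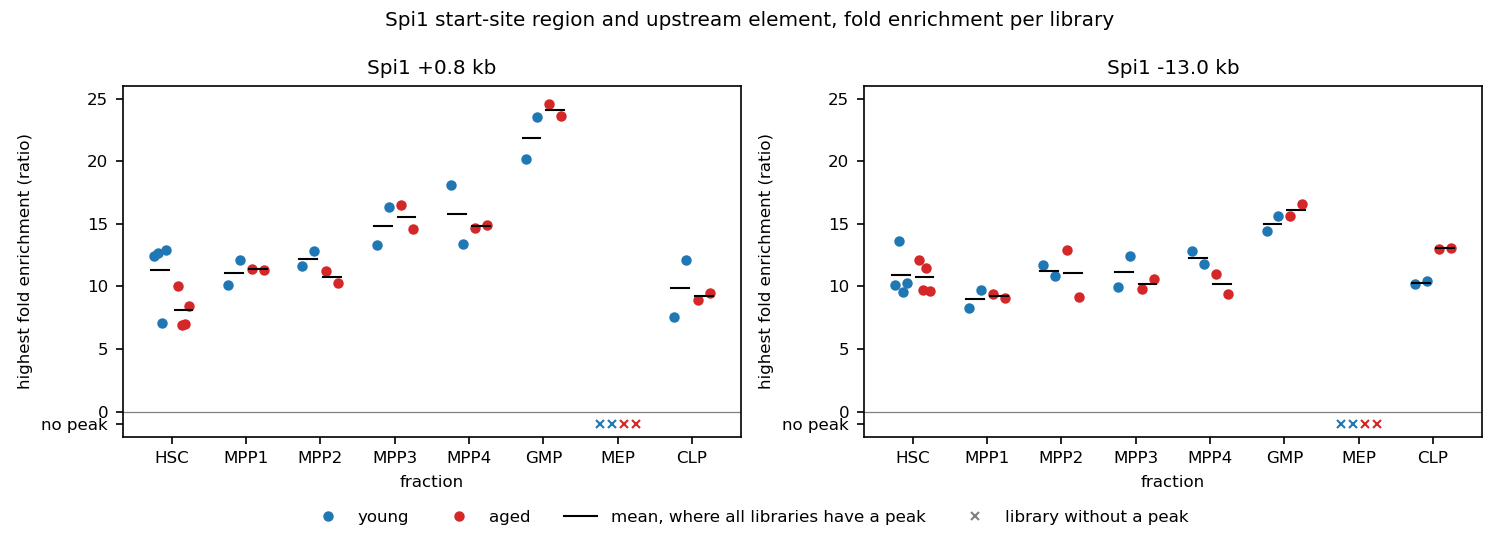
Highest fold enrichment (ratio) per library at the Spi1 start-site region (left) and the region 13 kb upstream (right) by fraction, with young libraries in blue, aged in red, group means as black lines and crosses for libraries without a peak. At the start-site region the GMP libraries sit between 20.2 and 24.6, above every other library, while 13 kb upstream the GMP libraries lie between 14.4 and 16.6 and the others with a peak between 8.30 and 13.6.

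Against HSCs, in limma on log2 fold enrichment over the regions called in all libraries of both fractions, the Spi1 start-site region rose in GMPs by 1.29 (SE 0.173, adjusted p = 4.63e-06, 2.45-fold), in MPP4 by 0.70 (SE 0.170, adjusted p = 0.0109, 1.62-fold) and in MPP3 by 0.69 (SE 0.174, adjusted p = 0.0201, 1.62-fold). Of all regions tested 67.3% were higher in GMPs, 6.72% in MPP4 and 4.05% in MPP3. The median difference over all regions between GMPs and HSCs was 0.53, and with each library centred on its median the GMP difference at the start-site region was 0.73 (adjusted p = 0.00121). The MPP3 call was lost without young MPP3 replicate 2, aged MPP3 replicate 1 or aged MPP3 replicate 2, with adjusted p = 0.0591, 0.0751 and 0.0796. The differences of 0.26 in MPP1 (adjusted p = 0.683), 0.29 in MPP2 (adjusted p = 0.422) and 0.00 in CLPs (SE 0.177, adjusted p = 0.994) did not pass, where 0.00598%, 1.01% and 9.84% of all regions were higher. As a percentile among the regions a library called, the start-site region stood at 88.0 to 93.9 in GMPs, 83.0 to 95.7 in MPP3, 77.8 to 94.5 in MPP4 and 30.7 to 85.2 in HSCs.

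The region 13 kb upstream of the Spi1 TSS (chr2:91082830-91083348, 519 bp), at the place of the URE, overlaps no exon and lies in an intron of a longer annotated Spi1 transcript. It was called in the same 32 libraries as the start-site region, with summits that lay within 43 bp of each other, and in 0 of 4 MEP libraries. This pattern, all 32 libraries outside MEPs and no MEP library, was shared by 3175 regions, 3.02% of the catalogue. GMP libraries gave 14.4 and 15.6 in young and 15.6 and 16.6 in aged mice. HSC libraries gave 10.1, 13.6, 9.53 and 10.3 in young and 12.1, 9.75, 11.5 and 9.62 in aged mice. Over HSCs and MPPs its mean was 10.6 ± 1.41 (SD, n = 24), with a range of 8.30 to 13.6. MPP1 was lowest, at 9.13 ± 0.621 against 10.7 ± 1.17 in MPP3 (SD, n = 4 each), the next in order, without overlap (two-sided exact permutation test, p = 0.0286, adjusted p = 0.10). CLP libraries gave 10.2 and 10.4 in young and 13 and 13.1 in aged mice. In limma the GMP difference from HSCs was 0.53 (SE 0.121, adjusted p = 0.000761), as large as the median difference of 0.53 over all regions, and it was -0.03 (adjusted p = 0.817) with libraries centred on their medians. In the other 5 fractions the difference from HSCs lay between -0.24 and 0.11, with adjusted p of 0.586 or above.

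Both shared regions were called less often in MEPs than in all other libraries, in 0 of 4 against 32 of 32 (two-sided Fisher's exact test with Benjamini-Hochberg adjustment over 99670 regions, adjusted p = 0.000490). Of all regions 11.2% passed this test in MEPs, so 2 of 12 is near that share. The small number of MEP peaks moves with this result, and its part in it was not tested. With calls kept only for peaks that span 50% of a region, the start-site region no longer passed (adjusted p = 0.672). A weaker opening in each cell and fewer cells with an open site cannot be told apart in bulk libraries.

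A further 3 regions upstream of Spi1 were called almost wholly in GMPs. The region 14.8 kb upstream (chr2:91081148-91081408) was called in 4 of 4 GMP libraries, at 8.10 and 7.56 in young and 7.88 and 8.12 in aged mice, and in 1 of 32 others, a young MPP4 library at 3.55. The region 6.9 kb upstream (chr2:91089146-91089330) was called in 3 of 4 GMP libraries, at 5.94 and 5.15 in young and 5.80 in aged mice, and in 0 of 32 others, and its window held the 8 letters GAGGAAGT, as did 8.44% of windows. The region 11.4 kb upstream (chr2:91084575-91084733) was called in both aged GMP libraries alone, at 4.14 and 4.68, near the level of the weakest peaks. These 3 regions were called more often in GMPs than elsewhere by Fisher's exact test, with adjusted p = 0.000737, 0.00328 and 0.0333 in the order given. The regions 6.9 and 11.4 kb upstream entered the catalogue through GMP peaks alone. Their p-values rest on the same calls that made them members, and nothing is concluded from them. The call 11.4 kb upstream was lost without aged GMP replicate 1 (adjusted p = 0.206) or aged GMP replicate 2 (adjusted p = 0.205). These were the only regions of the 12 to pass it in GMPs, and 29% of all regions were called more often there, 28951 of 99670, so 3 of 12 is near the share of the catalogue.

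The region 9.6 kb upstream (chr2:91086400-91086668, 269 bp) was called in 14 libraries. GMP libraries were highest, at 11.2 and 11.6 in young and 9.33 and 9.76 in aged mice. MPP4 libraries gave 4.51 and 6.79 in young and 6.93 and 8.29 in aged mice, and 3 of 4 CLP libraries gave 7.04 and 5.15 in young and 7.21 in aged mice. The remaining calls were 1 young MPP3 library at 5.43, 1 aged MPP3 library at 5.85 and 1 aged MPP1 library at 6.69, and no HSC, MPP2 or MEP library had a peak. In GMPs its call count of 4 of 4 against 10 of 32 lay just short of the threshold (adjusted p = 0.0553). It passed with peaks of -log10 q of at least 10 (adjusted p = 0.0348), and without any 1 of the 10 other libraries that called the region (adjusted p = 0.0442 to 0.0451). Leaving out such a library lowers the unadjusted p by construction, so nothing is concluded from those passes. The region did not pass with any other library left out, GMP libraries among them.

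**Figure D3:**
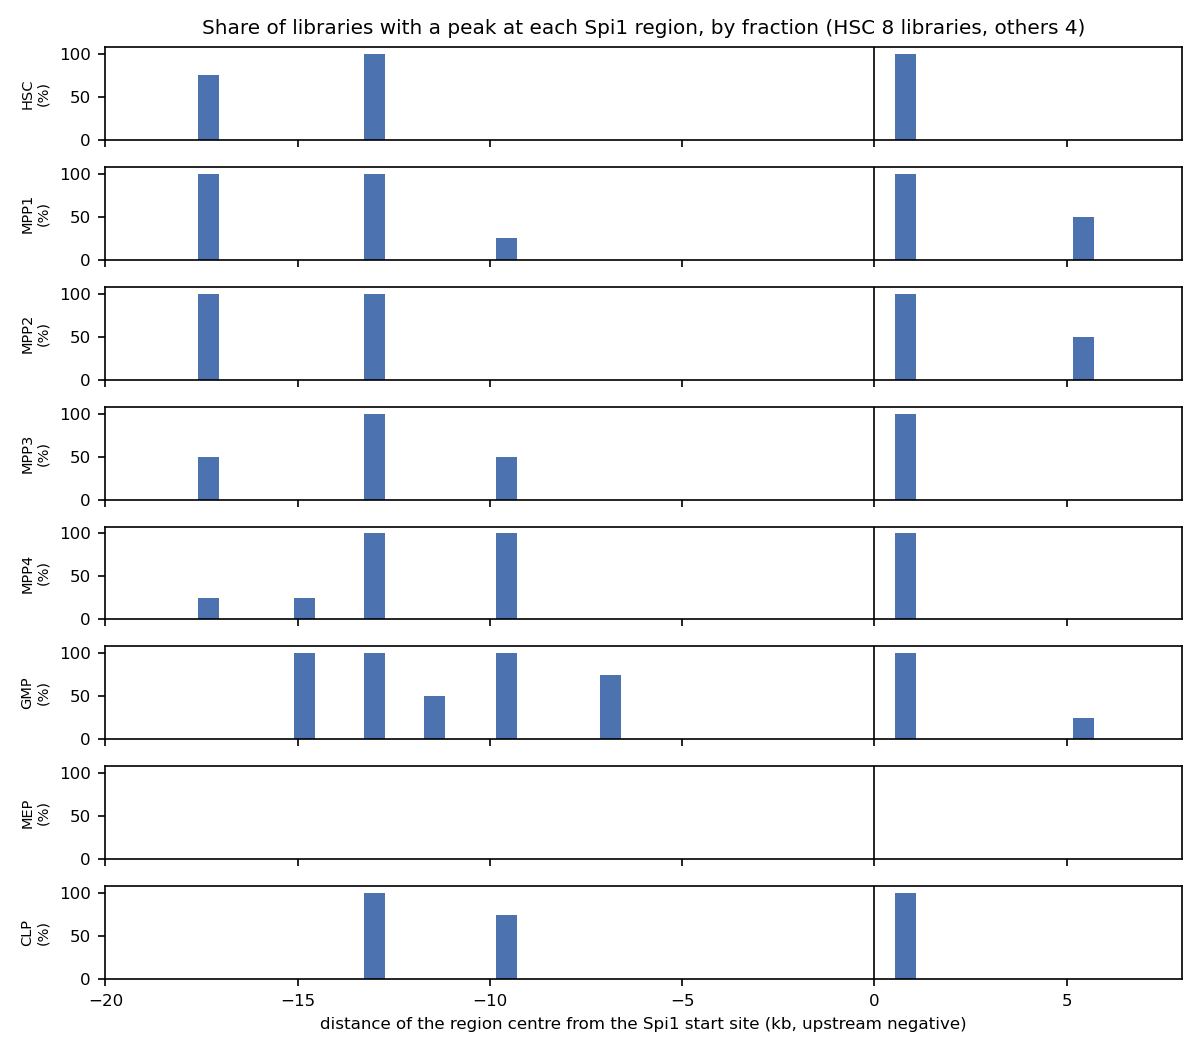
Share of libraries with a peak (percent, 8 libraries for HSC and 4 for every other fraction) at each of the 8 Spi1 regions, placed by the distance of the centre from the TSS (kb, upstream negative). Bars 13 kb upstream and 0.8 kb downstream are full in 7 fractions, that 17.3 kb upstream is seen from HSC to MPP4, that 9.6 kb upstream is full in MPP4 and GMP, and the MEP panel is empty.

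The region 17.3 kb upstream (chr2:91078470-91079078, 609 bp) overlaps no gene and ran the other way, from HSCs to MPP4. It was called in 17 libraries, all of them of HSCs or MPPs. HSC libraries gave 7.16, 4.55, 3.38 and 4.98 in young mice and 3.89 and 4.46 in replicates 1 and 2 of aged mice, with no peak in aged replicates 3 and 4. MPP1 libraries gave 6.20 and 6.52 in young and 6.26 and 4.56 in aged mice, and MPP2 libraries 5.10 and 5.99 in young and 4.86 and 4.10 in aged mice. Both young MPP3 libraries, at 5.79 and 4.00, and 1 aged MPP4 library, at 3.87, had a peak. No GMP, MEP or CLP library did. The values ran from 3.38 to 7.16, low among called peaks, and no fraction passed the test of calls at this region. Its calls overlapped those of the region 9.6 kb upstream in 3 libraries, 17.6% of its own 17 and 21.4% of the other's 14. The region 5.4 kb downstream (chr2:91101396-91101694), inside Spi1 and in no exon, was called in 5 libraries, at 5.81 and 5.08 in aged MPP1, 4.26 in a young and 5.21 in an aged MPP2 and 7.03 in an aged GMP library.

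In the same test HSCs, the 4 MPPs and CLPs gave no call at any of the 12 regions, in either direction. Over all regions 1.31% were called more often and 0.588% less often in HSCs, 1.47% more often and 0.0883% less often in CLPs, and 0% in MPP1, MPP2, MPP3 or MPP4. At an unadjusted p under 0.05, the regions 9.6 kb upstream of Spi1 and 2.4 kb upstream of Spib were called less often and the Spic region 37.3 kb downstream more often in HSCs, where 11.5% of all regions had such a p. In MPP4 the Spi1 region 9.6 kb upstream, the Spib region and the Spic promoter were called more often, against 3.31% of all regions. The Spi1 region 17.3 kb upstream was called more often in MPP1 and in MPP2, against 3.42% and 2.00% of all regions, and the Spib region more often in CLPs, against 10.3%. MPP3 had none of the 12 and 0.830% of all regions.

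Spib had 1 region, 2.4 kb upstream of its TSS (chr7:44534249-44534757, 509 bp), which overlaps a coding exon of the neighbouring gene Pold1, the catalytic subunit of DNA polymerase delta. It was called in 15 libraries. CLP libraries gave 17 and 13.8 in young and 10.3 and 18.1 in aged mice. GMP libraries gave 12 and 18.6 in young and 15.1 and 8.37 in aged mice. MPP4 libraries gave 10.9 and 9.22 in young and 10.7 and 16.2 in aged mice. The region was thus open in every library of the lymphoid-primed MPP4 and of both CLPs and GMPs, and their ranges overlapped. MPP3 libraries gave 7.89 and 7.38 in young and 9.09 in 1 of 2 aged libraries. The means of 14.8 ± 3.48 in CLPs, 13.5 ± 4.37 in GMPs and 11.7 ± 3.04 in MPP4 (SD, n = 4 each) passed no test between neighbours in this order (two-sided exact permutation tests, p = 0.629 for CLPs against GMPs and 0.571 for GMPs against MPP4, adjusted p = 0.967). No peak lay at the Spib TSS itself. Of the 15 libraries with a peak, 13 also called the Spi1 region 9.6 kb upstream, which is 86.7% of the Spib calls and 92.9% of the 14 calls at that Spi1 region.

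**Figure D4:**
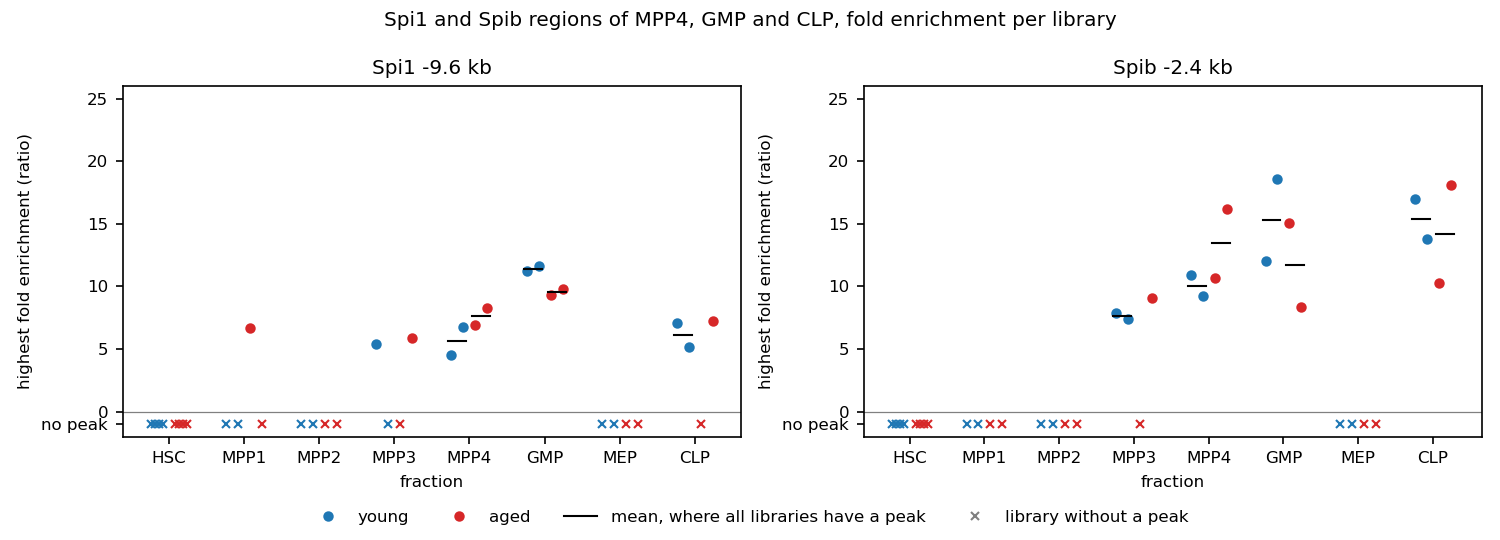
Highest fold enrichment (ratio) per library at the Spi1 region 9.6 kb upstream (left) and the Spib region 2.4 kb upstream (right) by fraction, drawn like the plot of the Spi1 start-site region, with crosses for libraries without a peak. Both panels have crosses alone in HSC, MPP2 and MEP and points in all 4 libraries of MPP4 and of GMP, with the GMP points highest on the left (9.33 to 11.6) and the MPP4, GMP and CLP points overlapping on the right.

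Spic had 3 regions. The promoter region, centred 0.1 kb upstream of the TSS (chr10:88682819-88683446, 628 bp), was called in 15 libraries. In HSCs it was called in replicates 1 and 2 of both ages, at 6.81 and 10.2 in young and 6.45 and 8.86 in aged mice, and in no library of replicates 3 and 4. This split by replicate number, in either direction, was found at 0.496% of the 51625 regions called in HSCs. MPP1 libraries gave 7.05 and 6.79 in young and 7.06 in 1 aged library, and MPP4 libraries 7.67 and 8.26 in young and 4.23 and 8.86 in aged mice. A single library of each had a peak in young MPP3 (7.96), aged MPP3 (4.28), aged MPP2 (7.94) and aged CLP (4.86), and none in young MPP2, young CLP, GMP or MEP. All peaks lay between 4.23 and 10.2, below the 20.2 to 24.6 of the Spi1 start-site region in GMPs.

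The Spic region 37.3 kb downstream of the TSS (chr10:88645357-88646015, 659 bp) overlaps no annotated gene. HSC libraries of aged mice all had a peak there, at 5.37, 11.6, 8.68 and 9.94, as did young replicates 1 and 2, at 7.56 and 6.25, but not young replicates 3 and 4. Young replicates 3 and 4 had the shortest lists of the HSC libraries, 27856 and 29022 peaks, against 31081 to 38756 in the others. The part of list length was not tested. This 4 of 4 against 2 of 4 did not pass Fisher's exact test (two-sided p = 0.429, adjusted p = 1.00). MPP1 libraries gave 11.0 and 7.31 in young and 8.36 in 1 aged library, and young CLP libraries 6.38 and 6.83. Of the other libraries with a peak, MPP2 gave 6.32 in young and 8.41 in aged, MPP3 5.21 in young and MPP4 6.35 in aged mice. Promoter and distal region shared 9 of their 15 calls each, 60.0%. The region 13 kb downstream (chr10:88669960-88670137) was called in 1 library, a young CLP library, at 6.47.

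**Figure D5:**
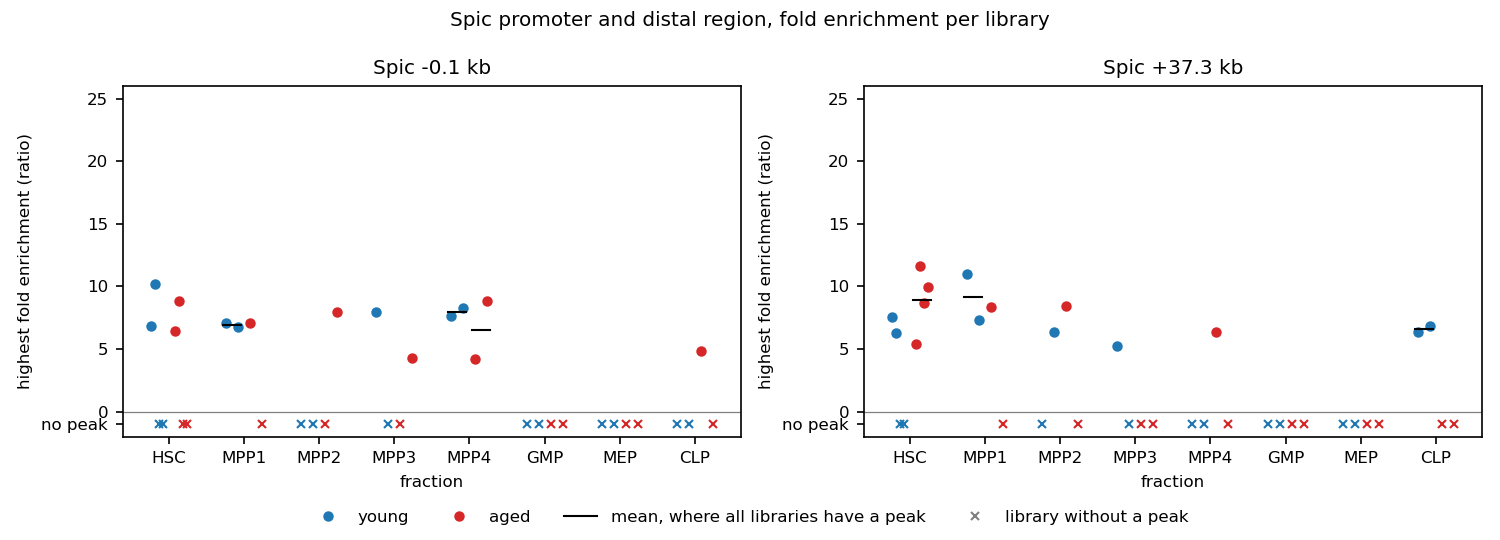
Highest fold enrichment (ratio) per library at the Spic promoter region (left) and the region 37.3 kb downstream (right) by fraction, drawn like the plot of the Spi1 start-site region. In HSCs the promoter has 2 young and 2 aged points and 4 crosses, and the distal region has 2 young and 4 aged points, while GMP and MEP hold crosses alone in both panels.

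The question of the study was how accessibility differs between young and aged cells, and at these 12 regions no comparison of ages passed its threshold. With fraction as stratum, an exact conditional test of calls found 0 of the 10 regions that could vary past an adjusted p of 0.05, against 0% of 85292 regions over the catalogue, and at an unadjusted p under 0.05 it found 0 of 10 against 1.37% of all. In HSCs, 0 of the 5 regions with a peak there were called in the 4 libraries of one age and in 0 of 4 of the other, a pattern that 0.707% of regions called in HSCs showed. In replicates 3 and 4 alone, 2 regions had that pattern, Spi1 17.3 kb upstream in young and Spic 37.3 kb downstream in aged HSCs, while in replicates 1 and 2 alone there was none. Of the 12 regions 4 had a peak in replicates 3 and 4, so these are 2 of 4, against 10.1% of the 41883 regions called there, and 7.37% of the 46309 regions called in replicates 1 and 2 had the pattern. With 2 libraries per age no test of a single region was made in these replicates. In replicates 3 and 4 the young lists held 27856 and 29022 peaks and the aged lists 32185 and 31081, and the part of this was not tested.

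Fold enrichment gave no call with age either. limma with fraction as covariate gave no call with age at the 2 regions called in all 24 HSC and MPP libraries, -0.18 at the Spi1 start-site region (SE 0.101, adjusted p = 0.557) and -0.07 at the region 13 kb upstream (SE 0.080, adjusted p = 0.815). The former was -0.01 with the mean over summits and the latter 0.07 with, as covariate, the word "new" that the peak names of some libraries contain. In this fit 0% of all regions passed and 1410 of 13465 had an unadjusted p under 0.05. In HSCs alone the start-site region was 0.45 lower on the log2 scale in aged libraries (SE 0.204, 0.731-fold, unadjusted p = 0.0424, adjusted p = 0.638), with 0% of 17340 regions past the threshold and 1300 at an unadjusted p under 0.05. Without young replicate 3, at 7.09, the difference grew to -0.66 (adjusted p = 0.332), and without young replicate 2 it shrank to -0.38. The difference between this HSC effect and that averaged over the MPPs was -0.42 (SE 0.213, adjusted p = 0.899). In the other fractions the log2 differences with age at regions called in all libraries of the fraction lay between -0.41, for Spib in GMPs, and 0.45, for the Spi1 region 9.6 kb upstream in MPP4, with no adjusted p under 0.689. With 2 libraries per age in these fractions, the lack of calls does not show that levels were alike.

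Genes that act with PU.1 or downstream of it were read at the region nearest their TSS, for lists chosen with earlier results of these data known. Of 20 PU.1 target genes 19 had such a region, and 7 were called more often in GMPs (Csf1r, Itgam, Cybb, Mpeg1, Il7r, Btk and Ctss), 5 less often in MEPs (among them Csf2rb, Flt3, Ptprc and Tlr4) and 2 less often in HSCs (Fcgr3 and Ncf4). Csf1r, the macrophage colony-stimulating factor receptor, was called in 4 of 4 GMP libraries and in no other (adjusted p = 0.000183), and Cybb, a subunit of the phagocyte oxidase, in 3 of 4 GMP libraries alone (adjusted p = 0.00328). The regions of Csf1r, Cybb and Ctss entered the catalogue through GMP peaks alone. Their GMP tests rest on those same calls, and nothing is concluded from these p-values. Of all regions, 29% were called more often in GMPs, 11.2% less often in MEPs and 0.588% less often in HSCs. Of 11 partners and regulators with a region among 12, Gata2 and Gfi1 were called more often in GMPs, and Runx1, Cbfb, Cebpa, Irf4 and Ikzf1 less often in MEPs. The Gata2 region also had peaks in GMP libraries alone, so the same limit holds for its test. The region at the TSS of Runx1, whose product binds the URE, was called in 25 libraries and in 0 of 4 MEP libraries (adjusted p = 0.0471).

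The other ETS factors gave 14 of 14 genes with a region, of which Fli1 was called more often in GMPs and Elf1, Elf2, Elf4, Elk3 and Etv3 less often in MEPs. The regions at the starts of Ets1, Ets2, Gabpa, Elk1 and Elk4 were called in all 36 libraries, MEPs included. Of the catalogue, 5335 of 105005 regions were called in all libraries, so that none of the 12 SPI regions was is near this share. Most of the 12 also lie away from a TSS. Erg was called in 8 of 8 HSC libraries and 0 of 4 each of GMP, MEP and CLP. Among 5 of 6 genes of iron recycling with a region, Hmox1, which breaks down haem, and Ftl1, a ferritin chain, were called less often in MEPs, and Bach1, the repressor of Spic, was called in all 36 libraries. Over all regions, 29% were called more often in GMPs and 11.2% less often in MEPs. No gene of these 4 lists passed the test of age.

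Promoters most like each gene in level were found over the 36 libraries among 12230 promoter regions, taking for a library without a peak its lowest fold enrichment. For the Spi1 start-site region these were T2 (Pearson r = 0.97), Pwwp2b (0.97), Slc2a3 (0.96), Parp12 (0.96) and Trf (0.96), each called in the same 32 of 36 libraries outside MEPs. For the Spib region they included Ptpro (0.93), Ccdc180 (0.92), Vrk1 (0.91) and Cd300c (0.91), each called in 4 of 4 GMP and 4 of 4 CLP libraries and in no HSC library. For the Spic promoter they were Jag2 (0.71), Zfp618 (0.68), Pole (0.63), Bpifb4 (0.62) and 2700081O15Rik (0.60). All values share the libraries and their number of peaks, and the likeness is a description of levels.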

How the data were processed

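Single reads of 60 bp from 20000 cells per library, with fragments selected from 240 to 360 bp, had been aligned by the authors with Bowtie2 to mm10 and subsampled to one number with SAMtools. Peaks were called by the authors in each library with MACS2 2.2.6 without its fragment model (versions from the submitters' processing notes and the study's methods). The deposited lists hold, per summit, a fold enrichment over local background (a ratio), -log10 p-values and -log10 q-values, and a deposited integer score, which was not used. As read counts are not part of the lists, the study's count model was replaced by limma on log2 fold enrichment and exact tests on calls. Depth behind a value is unknown. Values depend on peak width and on a background that MACS2 sets per library.

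Regions were annotated with protein-coding transcripts of the basic set of GENCODE release 21 (GRCm38), coordinates counted from 1. A call is any peak in the region. Calls were compared between ages with an exact conditional test with fraction as stratum (85292 regions), and between each fraction and the rest with Fisher's exact test (99670 regions). limma 3.58.1 in R 4.3.3 was run over regions called in all libraries of a comparison, with scipy 1.17.1 for permutation tests. P-values were adjusted after Benjamini and Hochberg over all regions, with a threshold of 0.05, and the tests were tested on simulated data with known changes. In these, Fisher's test of a fraction with 4 libraries recovered nearly all changed regions past the adjusted threshold when many regions changed, but only a minority when few did, so counts of 0 in the MPPs do not show that calls were alike. Within a fraction, limma compared 4 libraries per age in HSCs and 2 in every other. The fit over HSCs and MPPs used 24 libraries, and each fit against HSCs used 8 HSC and 4 other libraries.

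Named were all 12 regions, the region within 1000 bp nearest the TSS of each listed gene, and, for each SPI gene, the 5 genes with a promoter region (1000 bp upstream to 100 bp downstream) most correlated with its region of largest spread over fraction means. The members and lists were chosen with earlier results of these data known. Some genes and sequences that these rules take in are not reported here. Peak names of 2 of 18 young and 9 of 18 aged libraries contain "new", which no label explains. Other settings were peaks of -log10 q of at least 10, peaks covering 50% of a region, equal peak numbers per fraction, centring on library medians, the mean over summits, that word as covariate, the replicate number as block, replicates 1 and 2 alone, and leaving out each library.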

Additional observations from a re-analysis of the deposited data

Results flagged for a closer look

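At the Spi1 start-site region the third young HSC library, at a fold enrichment of 7.09, stood apart from the other young HSC libraries at 12.4, 12.7 and 12.9, with a gap of 0.918 of the range of the group (Dixon's test). Of 6 groups of 4 HSC libraries tested in this way, 1 stood out, and chance gives about 1 in 20.

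Among 47 pairs of fractions whose libraries all had a peak, every aged library moved opposite ways in 3. At the Spi1 region 13 kb upstream, aged exceeded young in CLPs (0.34, log2) and fell short in MPP4 (-0.28), a difference of 0.61. At the region 9.6 kb upstream, aged exceeded young in MPP4 (0.45) and fell short in GMPs (-0.25), a difference of 0.71. At the Spi1 start-site region, aged exceeded young in GMPs (0.14) and fell short in MPP2 (-0.18), a difference of 0.33. Each fraction had 2 libraries per age, and these differences were not tested.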

How the results depend on the processing

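No region passed a test of age under any alternative run, with counts of 0 throughout for calls over all fractions and for fold enrichment, including each library left out. Calls in every HSC library of a single age were met by 2 regions with replicates 3 and 4 alone, where it needs 2 against 2, and by 0 under the other alternatives, which left out libraries or changed the peaks used. The count of calls by fraction was 5 and ran from 4 to 6, and from 4 to 6 with each library left out. Calls of fold enrichment against HSCs numbered 4, and 3 to 4 with each library left out. The Spi1 region 13 kb upstream lost its GMP difference and turned to -0.03 with libraries centred on their medians, since the median of all regions moved by 0.53. Other changes of sign (log2) were at differences that passed no test in any setting. With the word in the peak names as covariate, the age difference 13 kb upstream over HSCs and MPPs turned from -0.07 to 0.07, the cause of which was not tested. With centring, that in HSCs alone turned from -0.01 to 0.01, and the CLP difference from HSCs at the Spi1 start-site region from 0.00 to -0.01. With each library left out, the age difference 13 kb upstream in HSCs ran from -0.07 to 0.10, the differences from HSCs there from -0.04 to 0.14 in MPP2 and from -0.09 to 0.04 in MPP3, and that at the start-site region from -0.09 to 0.18 in CLPs. The age difference at the start-site region over HSCs and MPPs shrank to -0.01 with the mean over summits. The 12 regions became 11 with stricter peaks and 14, of which 12 were the same, with starts of the comprehensive transcript set, an alternative chosen after seeing the data.

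With the replicate number as block, the count of age calls at these regions stayed 0, and the Spi1 start-site region in HSCs gave -0.45. Deviations of equally numbered young and aged libraries correlated at -0.10 to 0.24 over 5335 regions, above 0.1 in 7 of 18 pairs, and the numbers were not read as pairs. With 2 libraries per age, both pairs of a fraction give the same value by construction, so the 18 are not separate values. Peaks with a -log10 q under 3.00 are not listed, which limits what the absence of a call shows.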
